A study of Mus musculus with 8 samples.

Results

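Matrix metalloproteinases and their tissue inhibitors were followed through osteoblast differentiation of WT and Def6-/- calvarial cells. The set held 10 genes, chosen by symbol: the proteases Mmp2, Mmp3, Mmp9, Mmp11, Mmp13 and Mmp14, and the inhibitors Timp1, Timp2, Timp3 and Timp4. They were 10 of the 24421 genes in the files, and 9 of the 10 were among the 12348 genes that reached a mean of 1 CPM, the depth-scaled read count in the files, in at least 1 group. Timp4 did not.

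Poly-A RNA was sequenced from primary osteoblastic cells of the skull vault (calvaria) of newborn C57BL/6 mice, either WT or Def6-/-. Def6 is a signalling protein first studied in immune cells. Cells of both genotypes were digested out of bone with collagenase and dispase, expanded, and taken at day 0 or after 12 days in osteogenic medium with ascorbic acid and β-glycerophosphate, so that the day 0 cells of each genotype were the control for time and the WT cells of each day the control for genotype. The 4 groups had 2 libraries each, 8 in all, described as biological replicates in the methods, with no statement of how many animals were pooled in a library.

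The libraries held 2414745 to 3482617 reads on genes. Levels are given as normalized CPM, which scale the reads of a gene to the reads on genes in its library after trimmed mean (TMM) scaling, and differences are on the log2(normalized CPM + 1) scale, which understates the change of low genes. Def6 itself was at 39.6 to 58.0 normalized CPM in the WT libraries and at 0 to 0.854 in the Def6-/- libraries. The replicates were furthest apart in WT cells at day 0. These 2 libraries differed by a root mean square of 0.78 on the log2 scale over tested genes, against 0.38 to 0.43 in the other groups. The dissociated cells were not purified. Of 12 macrophage markers, the summed level was 171 to 380 normalized CPM at day 0 and 2922 to 5958 at day 12, led by Lyz2 (Ptprc was left out, its values not being whole reads). The 8 osteoblast markers summed to 13311 to 27555 at day 0 and 46068 to 66985 at day 12. Nearly all of this sum was Col1a1, and Bglap, also on the list, was at 0 in every day 0 library. Neutrophil markers were near absent (0 to 1.64 summed), with S100a9, Elane and Mpo at 0 in all 8 libraries, and the 5 endothelial markers summed to 0.788 to 13.1.

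Matrix metalloproteinases are zinc enzymes that cut collagen and other matrix proteins outside the cell. They are made as inactive proenzymes and are held in check by TIMPs, which bind the active site. In bone, collagenase-3 (Mmp13) cuts fibrillar collagen and is made by osteoblasts and hypertrophic chondrocytes, the membrane-bound Mmp14 cuts collagen at the cell surface and activates the gelatinase Mmp2, and Mmp9 is best known from osteoclasts and neutrophils.

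Mmp13 showed the largest difference with time among the 9 tested members. Mmp13 lies on chromosome 9 (GRCm38 chr9:7272514-7283331, plus strand), the first of 10 MMP genes in a cluster. In WT cells it was at 96.6 and 135 normalized CPM in the 2 libraries of day 0 and at 605 and 486 at day 12. The Def6-/- libraries stood at 85.0 and 145 at day 0 and at 786 and 647 at day 12. Every day 12 library of either genotype was thus above every day 0 library. The rise was 4.71-fold in WT cells (log2 difference 2.23, SE 0.28, limma adjusted p = 0.00104) and 6.36-fold in Def6-/- cells (2.67, SE 0.28, limma adjusted p = 0.00046). In these bulk samples, more cells that express a gene and more RNA per cell cannot be told apart. Macrophage and osteoblast markers moved with day in the same libraries. Of 6 tested cartilage markers, Col10a1 and Ihh were called higher with time in both genotypes and Col2a1 lower. In Def6-/- cells Col9a1 was also called higher and Acan lower. The part of any of these cell types in the rise of Mmp13 was not tested.

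Stromelysin-1 (Mmp3), which cuts proteoglycans and other matrix proteins, lies in the same cluster (chr9:7445822-7455975, plus strand) and stayed low. It had 14 and 19 reads at day 0 and 23 and 28 reads at day 12 in WT cells. The Def6-/- libraries had 10 and 21 reads at day 0 and 31 and 9 at day 12. The groups overlapped in both genotypes, and the log2 differences with time of 0.47 in WT cells (95% confidence interval -0.71 to 1.66) and 0.39 in Def6-/- cells (-0.80 to 1.57) did not pass the test (limma adjusted p = 0.572 and 0.681). Over the 8 libraries the cluster gave 7977 reads on Mmp13, 424 on Mmp12, 155 on Mmp3, 27 on Mmp27, 11 on Mmp8 and 4 on Mmp10, and 0 on Mmp1a, Mmp1b, Mmp7 and Mmp20.

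The 250 bases before the transcription start are shown for Mmp13 and its low neighbour Mmp3, and for Mmp14 and Timp3, which were called in opposite directions with time. The windows are from RefSeq (GRCm38.p6), for which 8 of the 10 members matched. For some members the RefSeq start differed from that of the gene position given here, which is from GENCODE vM21. The windows of Timp2 and Mmp11 lay within the GENCODE gene, and that of Timp3 ran into it. Capitals mark the sequence TGACTCA or TGAGTCA, known as the AP-1 motif, and TGTGGT or ACCACA, known as the RUNX motif, each read on both strands with no overlap between the motifs.
Mmp13 (chr9:7272264-7272513, plus strand): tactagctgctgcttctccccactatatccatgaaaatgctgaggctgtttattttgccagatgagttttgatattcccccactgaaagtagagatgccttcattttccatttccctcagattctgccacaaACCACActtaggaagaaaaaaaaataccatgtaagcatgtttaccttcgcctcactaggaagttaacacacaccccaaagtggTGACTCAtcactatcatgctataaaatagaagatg
Mmp3 (chr9:7445572-7445821, plus strand): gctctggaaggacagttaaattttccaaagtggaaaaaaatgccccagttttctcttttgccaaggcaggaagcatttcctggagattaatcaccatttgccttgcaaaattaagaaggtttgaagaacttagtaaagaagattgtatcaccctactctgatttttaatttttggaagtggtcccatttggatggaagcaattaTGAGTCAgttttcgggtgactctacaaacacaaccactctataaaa
Mmp14 (chr14:54431348-54431597, plus strand): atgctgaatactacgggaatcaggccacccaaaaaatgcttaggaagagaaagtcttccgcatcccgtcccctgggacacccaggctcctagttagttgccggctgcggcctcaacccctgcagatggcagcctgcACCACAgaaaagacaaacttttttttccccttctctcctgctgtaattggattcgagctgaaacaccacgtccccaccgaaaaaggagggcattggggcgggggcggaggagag
Timp3 (chr10:86300162-86300411, plus strand): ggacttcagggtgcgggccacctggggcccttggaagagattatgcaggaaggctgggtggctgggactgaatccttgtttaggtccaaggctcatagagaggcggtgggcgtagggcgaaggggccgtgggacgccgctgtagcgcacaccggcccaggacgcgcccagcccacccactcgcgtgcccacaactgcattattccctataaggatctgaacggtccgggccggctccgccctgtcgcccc
The Mmp13 window held both motifs, AP-1 at 35 to 29 bases and RUNX at 118 to 113 bases before the start. The Mmp3 window held an AP-1 motif at 46 to 40 bases and the Mmp14 window a RUNX motif at 114 to 109 bases. Neither motif was in the windows of Timp1, Timp2, Timp3, Timp4 or Mmp11, and no window of Mmp2 or Mmp9 was used here. Of 32851 promoters of the same length, 4.46% held the AP-1 motif, 14.1% the RUNX motif and 0.712% both. A match of these letters is a description of the window, not evidence of binding.

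Mmp14 in both genotypes and Mmp2 in WT cells were called higher with time, with smaller differences than Mmp13. Mmp14 (chr14:54431612-54445364, plus strand) was at 623 and 607 normalized CPM at day 0 and 986 and 1097 at day 12 in WT cells. Def6-/- values were 732 and 663 before and 1029 and 1107 after the 12 days. The day 0 and day 12 values did not overlap in either genotype. The rise was 1.69-fold in WT cells (log2 0.76, SE 0.17, limma adjusted p = 0.0155) and 1.53-fold in Def6-/- cells (0.62, SE 0.17, limma adjusted p = 0.0378). The WT call was lost without WT day 12 replicate 1 (adjusted p = 0.0854) or replicate 2 (0.141), with CPM as deposited (0.0592) and in a fit of only the WT libraries (0.126). The Def6-/- call was lost without any one of the day 12 libraries of either genotype or the Def6-/- day 0 libraries (adjusted p = 0.0838 to 0.234), with scaling factors from all genes in the files (limma adjusted p = 0.0567), with CPM as deposited (0.186), without a filter (0.063) and in DESeq2 (0.0579).

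Mmp2 (chr8:92827291-92853420, plus strand), a gelatinase, was the protease with the most reads. In WT cells it was at 1173 and 1295 normalized CPM at day 0 and 1810 and 2044 at day 12. The Def6-/- libraries stood at 1203 and 1340 at day 0 and 1760 and 1993 at day 12. All 4 day 12 libraries were above all 4 day 0 libraries. The WT rise of 1.56-fold (log2 0.64, SE 0.19) passed narrowly (limma adjusted p = 0.0454), and the Def6-/- difference of 0.56 (SE 0.19) did not pass (limma adjusted p = 0.0773). The WT call did not hold with scaling factors from all genes in the files (limma adjusted p = 0.0557), with CPM as deposited (0.141), without a filter (0.0926), in a fit of only the WT libraries (0.221), or without any one of the day 12 libraries or the Def6-/- day 0 libraries (0.0851 to 0.270). The Def6-/- difference passed in a fit of only the Def6-/- libraries (limma adjusted p = 0.013). It also passed without either WT day 0 library, where the difference was the same and the spread shared by all groups changed.

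Mmp9 and Mmp11 were low. Mmp9 (chr2:164940780-164955850, plus strand) had 45 and 25 reads at day 0 and 54 and 42 at day 12 in WT cells. The Def6-/- libraries had 37 and 20 reads at day 0 and 29 and 130 at day 12, so the day 12 value rested on replicate 2. The log2 difference with time was 0.37 (95% interval -1.09 to 1.83) in WT cells and 1.32 (-0.13 to 2.78) in Def6-/- cells, neither called (limma adjusted p = 0.732 and 0.207). Without Def6-/- day 12 replicate 1, which leaves 1 library in that group, the latter was 2.39. DESeq2 on all libraries gave 1.69 for it (adjusted p = 0.0402). The Def6-/- day 12 replicate 2 with the high Mmp9 had a macrophage marker sum of 3219 normalized CPM, below the 3674 of replicate 1. The osteoclast markers are a weak measure here, since Acp5, Ctsk and Itgb3 are among the 9 genes whose values in the files were not whole reads. A factor of 10 made 29 of their 49 such values whole, a factor of 100 made 12 whole and neither did so for 8, so levels of these genes in the files may be too low, and those on the marker lists were left out of the marker sums but entered the fit as deposited. Of the 6 other osteoclast markers, Calcr was at 0 in all 8 libraries, and Atp6v0d2 rose with time by 3.47 in WT and 3.39 in Def6-/- cells on the log2 scale (limma adjusted p = 0.00194 and 0.00218). Their sum at day 12, most of it Nfatc1, was 56.4 in Def6-/- replicate 2 against 56.4 to 64.0 over the 4 libraries. The part of either cell type in the Mmp9 level of that library was not tested.

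Mmp11 (stromelysin-3; chr10:75923222-75936496, minus strand) was the protease with no rise on average. It had 67 and 69 reads at day 0 and 68 and 67 at day 12 in WT cells. The Def6-/- libraries had 100 and 71 reads at day 0 and 46 and 44 at day 12, with no overlap. The log2 difference with time was -0.11 (SE 0.28) in WT cells and -0.65 (SE 0.28) in Def6-/- cells, neither called (limma adjusted p = 0.822 and 0.157). Its exons share 155 bases with Chchd10 on the opposite strand, and the strand setting of the counting was not given in the sources used here.

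Among the inhibitors, Timp3 fell with time in both genotypes. Timp3, the TIMP that binds to the matrix, lies on chromosome 10 (chr10:86300372-86349506, plus strand). In WT cells it was at 1241 and 1245 normalized CPM at day 0 and 671 and 604 at day 12. Def6-/- values were 1687 and 1543 before and 887 and 822 after the 12 days. All day 12 libraries were below all day 0 libraries, and at each day the Def6-/- values lay above the WT values with no overlap. The fall was 1.95-fold in WT cells (log2 -0.96, SE 0.17, limma adjusted p = 0.0053) and 1.89-fold in Def6-/- cells (-0.92, SE 0.17, limma adjusted p = 0.00677). The WT call was lost without WT day 12 replicate 2 (adjusted p = 0.0718) and in a fit of only the WT libraries (0.0701), and the Def6-/- call without Def6-/- day 0 replicate 1 (0.0778), day 12 replicate 1 (0.0567) or day 12 replicate 2 (0.0846). Timp3 lies within Syn3 on the opposite strand and shares 1733 exon bases with it, and Syn3 had 19 reads over the 8 libraries.

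Timp1, a secreted inhibitor encoded on the X chromosome (chrX:20870166-20874735, plus strand), was lower at day 12 but varied at day 0. In WT cells it was at 2251 and 624 normalized CPM at day 0, a 3.61-fold difference between replicates, and at 399 and 336 at day 12. The Def6-/- libraries stood at 1046 and 645 at day 0 and 301 and 404 at day 12. All day 12 libraries were below all day 0 libraries. The log2 differences of -1.69 (SE 0.51) in WT cells and -1.23 (SE 0.51) in Def6-/- cells did not pass the test (limma adjusted p = 0.0508 and 0.143). The WT difference passed with scaling factors from all genes in the files (limma adjusted p = 0.0438), with CPM as deposited (0.0172), in edgeR (0.0295) and in DESeq2 (0.000148). It was -0.77 without WT day 0 replicate 1 and -2.62 without replicate 2, fits that leave 1 library in that group. The Def6-/- difference passed in a fit of only the Def6-/- libraries (limma adjusted p = 0.00279) and in DESeq2 (0.0303). It also passed in limma without either WT day 0 library, where the difference was the same and the shared spread changed.

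Timp2 and Timp4 complete the set. Timp2 (chr11:118301069-118355740, minus strand), which takes part with Mmp14 in the activation of Mmp2, was at 2329 and 2756 normalized CPM at day 0 and 2968 and 3288 at day 12 in WT cells. Def6-/- values were 2712 and 2693 before and 2590 and 2928 after the 12 days. The log2 difference with time was 0.30 (95% interval -0.16 to 0.76) in WT cells, whose groups did not overlap, and 0.03 (-0.43 to 0.49) in Def6-/- cells, whose groups did. Neither passed (limma adjusted p = 0.342 and 0.95). Timp4 (chr6:115241892-115252205, minus strand) had 0 reads in each of the 4 day 0 libraries. A count of 0 allows up to 1.02 to 1.18 normalized CPM per library for counting error. At day 12 Timp4 had 6 and 2 reads in the WT and 1 and 4 reads in the Def6-/- libraries. Timp4 lies within Syn2 on the opposite strand and shares 90 exon bases with it, and Syn2 had 10 reads over the 8 libraries.

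**Figure D1:**
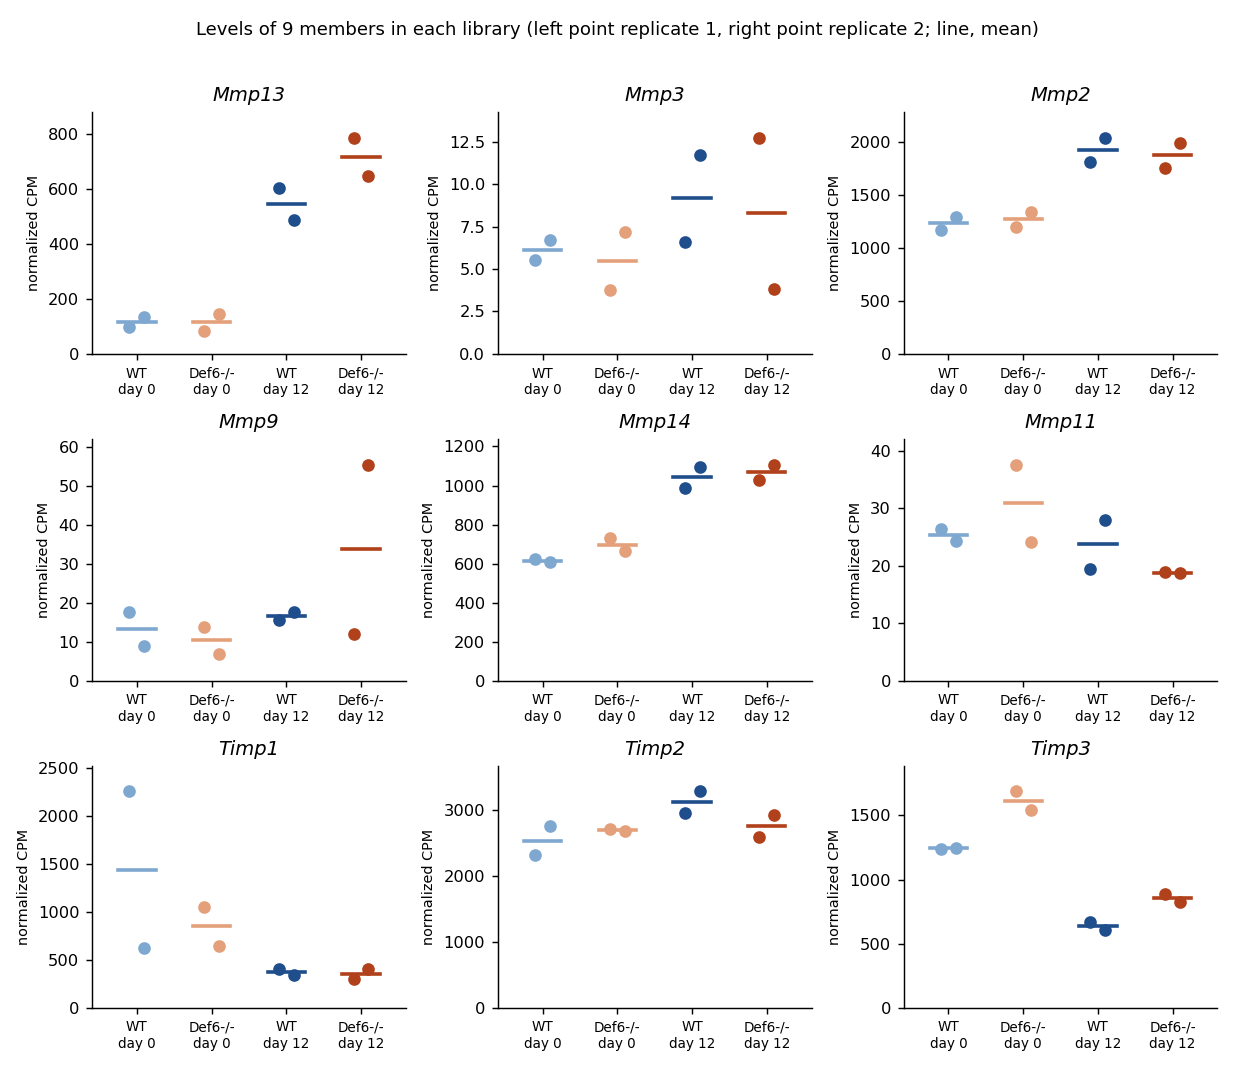
Level of 9 members (vertical axes, normalized CPM from 0, a separate scale for each gene) in the 4 groups; each point is 1 library and the line is the mean of 2. Mmp13 sits at 85.0 to 145 in the day 0 libraries and at 486 to 786 in the day 12 libraries, Timp3 at 1241 to 1687 and 604 to 887, and the WT day 0 points of Timp1 lie far apart at 2251 and 624.

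With time, 3 of the 9 tested members were called higher and 1 lower in WT cells at an adjusted p under 0.05 in limma, where 12.7% of all 12348 tested genes were called higher and 5.62% lower. Of the same 9, 2 were called higher and 1 lower in Def6-/- cells, where 12% and 4.78% of tested genes were. Mmp13, Mmp14 and Timp3 were called in both genotypes. Over the 9 members the median log2 difference was 0.37 (WT) and 0.39 (Def6-/-), against 0.00 and 0.01 over all tested genes. These medians are the values of Mmp9 in WT cells and of Mmp3 in Def6-/- cells. Both genes were low, and neither was called, so the medians do not show a shift of the set as a whole.

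**Figure D2:**
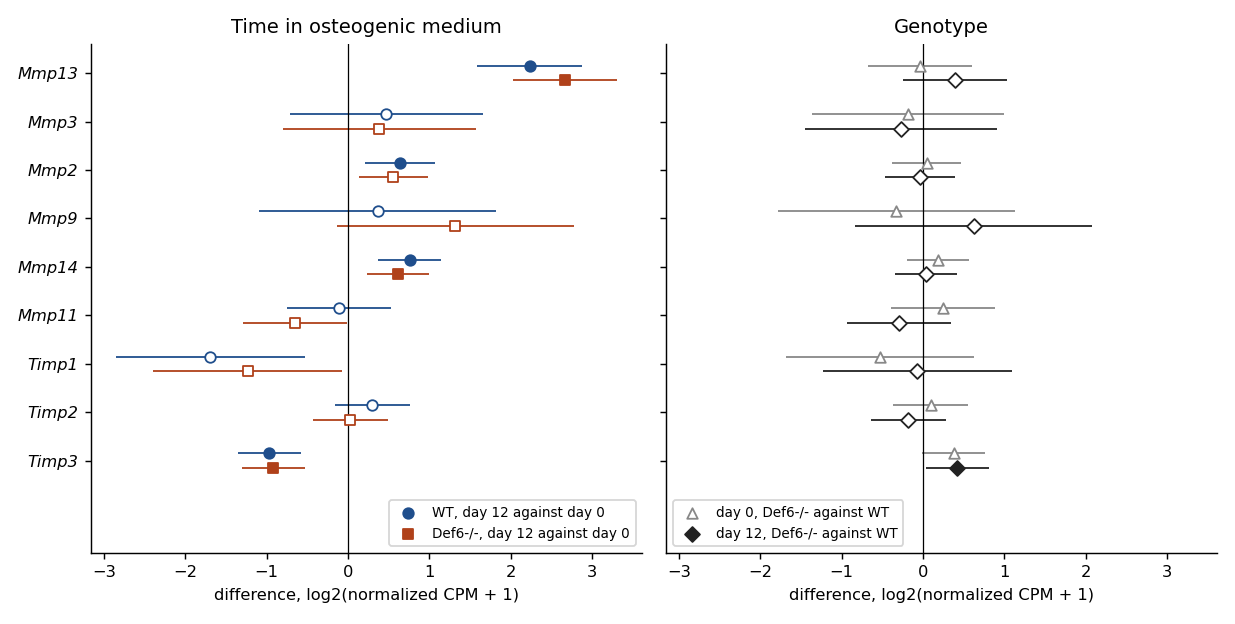
Difference in log2(normalized CPM + 1) for 9 members (points, with 95% confidence intervals from limma), with time in each genotype on the left and between genotypes at each day on the right; filled points were called. Mmp13 lies at 2.23 and 2.67 with time and Timp3 at -0.96 and -0.92, and on the right only the day 12 difference of Timp3, 0.42, is filled.

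Between genotypes, the question was whether the absence of Def6 changed the set at either day. At day 12 only Timp3 was called among the 9 members, by the rule of the study (unadjusted p under 0.05 and over 1.2-fold), where 0.81% of tested genes were called higher in Def6-/- cells and 0.591% lower. It was 1.34-fold higher in Def6-/- cells, at 854 ± 46.0 against 637 ± 47.4 normalized CPM (SD, n = 2). The log2 difference was 0.42 (SE 0.17), with an unadjusted limma p of 0.0363 and an adjusted p of 1. The call was lost with CPM as deposited (unadjusted limma p of 0.0878), without a filter (0.0533), in DESeq2 (0.0697), and without any one of the day 12 libraries or the Def6-/- day 0 libraries (0.0607 to 0.192).

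The other members did not pass between genotypes at day 12. The mean of Mmp13 was 717 ± 98.1 in Def6-/- against 545 ± 84.0 normalized CPM in WT cells (SD, n = 2), and although the libraries did not overlap, the log2 difference of 0.40 had a 95% interval of -0.25 to 1.04. It was called in a fit of only the day 12 libraries (unadjusted limma p of 0.0185, adjusted p of 0.995). The intervals were -0.46 to 0.39 for Mmp2, -0.35 to 0.42 for Mmp14, -0.64 to 0.28 for Timp2, -1.23 to 1.09 for Timp1, -0.94 to 0.34 for Mmp11, -1.46 to 0.91 for Mmp3 and -0.83 to 2.08 for Mmp9. For Mmp9 the difference was 1.69 without Def6-/- day 12 replicate 1, a fit that leaves 1 library in that group.

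At day 0, 0 of the 9 members were called in limma, edgeR and DESeq2 by the same rule, where 0.988% of tested genes were called higher in Def6-/- cells and 1.31% lower in limma. Timp3 came closest, with means of 1615 ± 102 in Def6-/- against 1243 ± 2.87 normalized CPM in WT cells (SD, n = 2), a log2 difference of 0.38 (SE 0.17, unadjusted limma p of 0.0566, adjusted p of 0.908). It was called with scaling factors from all genes in the files (unadjusted limma p of 0.0443, adjusted p of 0.905). Its log2 difference was 0.37 without WT day 0 replicate 1 and 0.38 without replicate 2, fits that leave 1 library in that group. Timp1 had a log2 difference of -0.53 (SE 0.51). It became -1.45 without WT day 0 replicate 2 and 0.40 without replicate 1, fits that leave 1 library in that group. The differences of the other 7 members lay between -0.33 for Mmp9 and 0.24 for Mmp11, with Mmp14 at 0.18, Timp2 at 0.09, Mmp2 at 0.04, Mmp13 at -0.04 and Mmp3 at -0.19. The comparisons at day 0 and day 12 share no libraries, but each shares its libraries with the comparisons over time.

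Whether the change with time differed between genotypes was tested as an interaction. By the same rule 0 of the 9 members were called in limma, edgeR and DESeq2, where 0.705% of tested genes were called higher and 0.421% lower in limma. The Def6-/- change minus the WT change was 0.44 for Mmp13 (95% interval -0.47 to 1.34), -0.14 for Mmp14 (-0.68 to 0.40), -0.08 for Mmp2 (-0.68 to 0.52) and 0.05 for Timp3 (-0.50 to 0.60). It was -0.28 for Timp2, 0.46 for Timp1, -0.54 for Mmp11, -0.08 for Mmp3 and 0.96 for Mmp9, with SEs of 0.29 to 0.91. Leaving out WT day 0 replicate 2 gave Timp1 an interaction of 1.38, and leaving out Def6-/- day 12 replicate 1 gave Mmp9 one of 2.02. Each of these fits leaves 1 library in the group concerned.

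To compare levels between genes, normalized CPM were divided by the length of the gene's exons in kb (GENCODE vM21). At day 0 the order was the same for the first 7 members in both genotypes: Timp1, Timp2, Mmp2, Timp3, Mmp14, Mmp13 and Mmp11. In WT cells these stood at 1619, 653, 366, 153, 103, 43.4 and 9.14 normalized CPM per kb, and in this group only Timp1 and Timp2 overlapped over their libraries among these 7. At day 12 the order in both genotypes was Timp2, Mmp2, Timp1, Mmp13, Mmp14 and Timp3, with 803, 572, 414, 204, 175 and 78.3 per kb in WT cells and 708, 557, 397, 268, 179 and 105 in Def6-/- cells. Mmp13 and Mmp14 overlapped over their libraries in WT cells at day 12 but not in Def6-/- cells. Mmp3, Mmp9 and Mmp11 followed at 4.60 to 9.53 per kb at day 12, and the mean of Timp4 was at most 0.217 per kb.

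Summed per kb, the 4 inhibitors stood at 6.49 and 2.83 times the 6 proteases in the WT day 0 libraries, 3.92 and 2.78 times in the Def6-/- day 0 libraries, 1.37 and 1.31 times in the WT day 12 libraries, and 1.11 and 1.25 times in the Def6-/- day 12 libraries. Every day 12 library was below every day 0 library. The highest ratio was that of WT day 0 replicate 1, in which Timp1 made up 77.2% of the inhibitor sum, against 45.0% in replicate 2. Mmp13 made up 5.99 to 9.42% of the protease sum at day 0 and 18.3 to 29.2% at day 12, and Mmp2 67.2 to 69.6% and 51.9 to 61.0%. The protease sum left out the 17 other MMP genes examined below. Among them Mmp23 stood at 31.5 (WT) and 30.1 (Def6-/-) per kb at day 0, and at 106 in both genotypes at day 12. The ratio was given as a description and not tested. Transcript sums do not count protein or active enzyme.

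**Figure D3:**
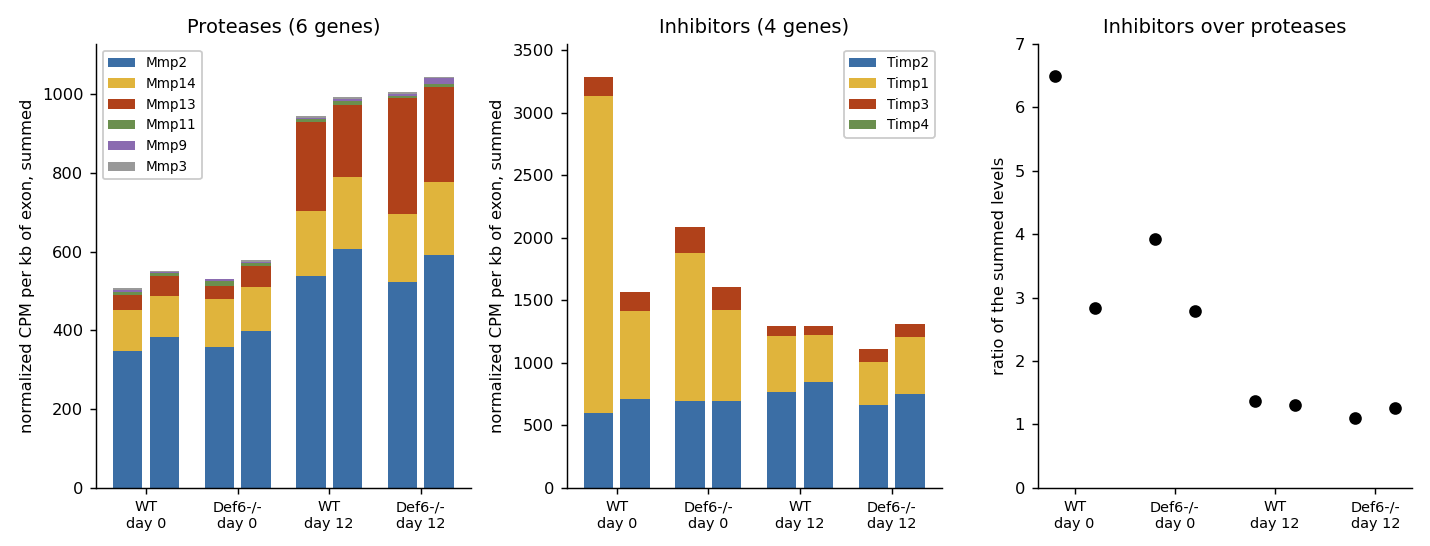
Stacked normalized CPM per kb of exon of the 6 proteases (left) and the 4 inhibitors (middle) in each library, replicate 1 then 2 within a group, and the ratio of the 2 sums (right, linear axis from 0). The ratio lies at 2.78 to 6.49 in the 4 day 0 libraries and at 1.11 to 1.37 in the 4 day 12 libraries, and the tallest inhibitor bar is WT day 0 replicate 1.

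Beyond the set, 17 other MMP genes were examined, of which 8 were tested. Of these, 3 were called higher with time in WT cells and 2 in Def6-/- cells, none lower. Over all tested genes the shares were 12.7% higher and 5.62% lower in WT cells, and 12% and 4.78% in Def6-/- cells. Mmp23, a membrane-anchored MMP, rose from 80.8 and 66.4 normalized CPM to 253 and 242 in WT cells (log2 1.74, SE 0.18, limma adjusted p = 0.00034), and from 66.2 and 74.6 to 239 and 256 in Def6-/- cells (1.80, limma adjusted p = 0.000312). Mmp12, the macrophage elastase, rose from 6.31 and 4.24 to 25.5 and 36.9 in WT cells (2.36, limma adjusted p = 0.000954), and from 4.52 and 4.43 to 43.5 and 37.6 in Def6-/- cells (2.92, limma adjusted p = 0.000354). The summed level of the 12 macrophage markers, led by Lyz2, rose over the same days, from at most 380 to at least 2922. Cx3cr1, 1 of the 12, was lower at day 12 on average (log2 -0.79 in WT and -0.98 in Def6-/- cells, neither called). The part of macrophages in the Mmp12 level was not tested. Mmp16, a membrane-type MMP, was called in WT cells (1.84, SE 0.53, limma adjusted p = 0.0433) and had a log2 difference of 1.54 in Def6-/- cells (limma adjusted p = 0.085). Between genotypes Mmp28 (epilysin) was called at day 12, at 11.5 and 15.4 in Def6-/- cells against 7.18 and 7.54 in WT cells (log2 0.78, unadjusted limma p of 0.0316, adjusted p of 1).

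Of 16 genes that activate or control MMPs, 15 were tested. In WT cells 4 were called higher and 2 lower with time, and in Def6-/- cells 3 higher and 2 lower. The shares over all tested genes were 12.7% higher and 5.62% lower in WT cells, and 12% and 4.78% in Def6-/- cells. The hyaluronan receptor Cd44, which can dock Mmp9 and Mmp14, fell by 1.56 in WT cells and 1.60 in Def6-/- cells on the log2 scale. Pcsk5, a proprotein convertase of the furin family, rose by 2.76 and 2.41, Thbs2, which takes part in the clearance of Mmp2, by 1.10 and 0.92, and Serpine2 by 0.79 and 1.16 (limma adjusted p = 0.000136 to 0.042 over these 6 differences). Over these 15 genes the median log2 difference with time was 0.31 (WT) and 0.12 (Def6-/-). Between genotypes 0 of the 15 were called at either day in limma by the unadjusted rule. By that rule 0.81% of all tested genes were called higher and 0.591% lower at day 12, and 0.988% and 1.31% at day 0.

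Of 12 matrix proteins that MMPs are known to cut, all tested, 5 were called higher and 1 lower with time in WT cells. In Def6-/- cells 5 were called higher and 2 lower. Over all tested genes the shares were 12.7% higher and 5.62% lower in WT cells, and 12% and 4.78% in Def6-/- cells. Dcn (decorin) rose by 3.59 and 3.35 on the log2 scale, Col3a1 by 1.70 and 1.42, and Col10a1, the collagen of hypertrophic cartilage and a substrate of Mmp13, by 2.28 and 2.37. Col2a1, the cartilage collagen, fell by 1.50 in WT cells and by 1.86 in Def6-/- cells. Acan (aggrecan) fell by 1.56 in Def6-/- cells (limma adjusted p = 0.0219) and by 1.21 in WT cells, where it was not called (0.0555). Col1a1, the main collagen of bone, was at 13187 and 27350 normalized CPM in the WT day 0 libraries and 44123 and 55703 at day 12, a log2 difference of 1.38 (limma adjusted p = 0.0504). The 7 cartilage markers summed to 1976 to 3829 normalized CPM at day 0 and 877 to 1258 at day 12, most of it Col2a1. The markers did not move together. Of the 6 tested, 2 were called higher and 1 lower with time in WT cells, and 3 higher and 2 lower in Def6-/- cells. Between genotypes Eln (elastin) was called higher in Def6-/- cells at day 0 (log2 0.52, unadjusted limma p of 0.0439, adjusted p of 0.908). At day 12, 0 of the 12 were called, where 0.81% of all tested genes were called higher and 0.591% lower.

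**Figure D4:**
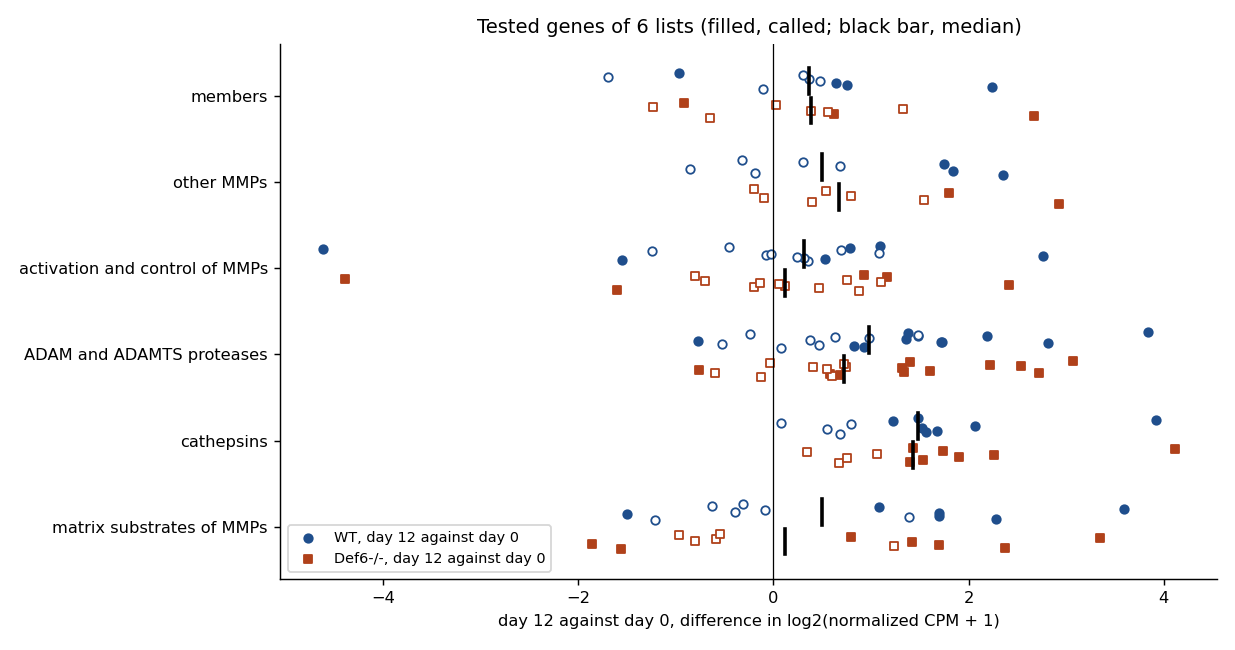
Difference with time in log2(normalized CPM + 1) for the tested genes of 6 lists in WT (circles) and Def6-/- (squares) cells; filled symbols were called, black bars are list medians. Mmp13 is the rightmost of the members at 2.23 and 2.67, and Timp3 lies at -0.96 and -0.92.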

How the data were processed

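RNA-seq of 8 libraries (4 groups of 2) was analysed. Per the study's methods and the submitters' processing notes, poly-A libraries were sequenced on a HiSeq, trimmed with fastp, aligned to mm10 with HISAT2 and counted with HTSeq. The authors deposited CPM from edgeR, 1 file per sample, taken over all reads, including the 64.7 to 71.2% that the counter put on no gene. Versions, annotation and strand setting are not given in the sources used here. Whole reads were recovered from the CPM steps (99.96% of positive values within 0.02 reads); 49 values of 9 genes, all expressed in macrophages or osteoclasts, were not whole, none of a member, and most of them became whole when multiplied by 10 or 100; the reason is not given in the sources used here, they entered the fit as deposited, and 4 of these genes (Acp5, Ctsk, Itgb3 and Ptprc) were left out of marker sums. Rows naming no gene were left out.

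CPM were rescaled to reads on genes with TMM factors from the tested genes (edgeR 4.0.16). Factors from all genes in the files were computed as well. This choice between the 2 scalings was made after the calls under both were known, to match an earlier processing of these data, and it decides 4 member calls: Mmp2 in WT cells and Mmp14 in Def6-/- cells are called only with the tested genes, Timp1 in WT cells with time and Timp3 between genotypes at day 0 only with all genes. Genes with a group mean of at least 1 deposited CPM were tested with limma 3.58.1 (lmFit, eBayes with trend, two-sided, R 4.3.3) on log2(normalized CPM + 1), with 1 mean for each of the 4 groups and all libraries in the fit. Comparisons with time were called at a Benjamini-Hochberg adjusted p under 0.05 over all tested genes, and genotype and interaction at the rule of the study, unadjusted p under 0.05 and over 1.2-fold. The fit was tested on simulated data with the same spread set for all genes and groups. In these libraries the WT day 0 replicates differed more than those of the other groups, so that test does not cover unequal spread. edgeR's quasi-likelihood test and DESeq2 1.42.0 were run on the recovered reads as alternatives. All members were named in every comparison, and from each other list the called genes with the smallest p, at most 3 in each direction. Intervals and floors cover counting or replicate error only. The members and lists were chosen with earlier results of these data known. Exon lengths and positions are from GENCODE vM21 and windows before the start from RefSeq. No table of protein sequences was used here. The values of 1 gene of the list on activation and control are not reported here.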

Additional observations from a re-analysis of the deposited data

How the results depend on the processing

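Mmp13 rose with time in both genotypes under every alternative tried, with adjusted p up to 0.0193 in WT and 0.00944 in Def6-/- cells when 1 library was left out. Counting error is largest for the low genes Mmp3, Mmp9 and Mmp11, at 9 to 130 reads a library, among the 9 tested members, and Mmp9 also differed 4.66-fold between the Def6-/- day 12 libraries. Of the 801 member values under alternatives, 697 kept their direction and side of the threshold, 38 lost and 24 gained a call, and 42 changed sign. The cause of the changes below was not tested, apart from fewer libraries, genes or filters where the alternative itself makes them.

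Fitting only the libraries compared called 1 member and 1095 genes with time in WT cells (892 higher, 203 lower), 5 members and 3909 genes in Def6-/- cells (2264 and 1645), 2 members and 554 genes between genotypes at day 12, and 100 genes at day 0. Without a filter 0 members and 459 genes were called at day 12 and 325 genes in the interaction. CPM as deposited called 0 members at day 12 and split genes 119 higher and 51 lower there, against 100 and 73, and 138 and 53 at day 0, against 122 and 162. DESeq2 called 0 members and 85 genes (61 and 24) at day 12 and 45 genes (36 and 9) in the interaction, against 87 and 52, and split day 0 as 35 and 177, and edgeR as 100 and 210. Factors from all genes in the files, an alternative added after seeing the data, called 1 member at day 0, Timp3.

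Several log2 differences changed sign. With CPM as deposited these were Timp2 in Def6-/- cells with time (-0.0582), Mmp2 (0.0344) and Timp1 (0.0030) at day 12, Mmp13 at day 0 (0.10) and Timp3 in the interaction (-0.0262). Timp2 in Def6-/- cells was -0.0517 with factors from all genes, and Mmp3 in the interaction 0.0491 in edgeR and 0.0263 in DESeq2.

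Leaving out 1 library gave 1 to 5 members and 887 to 5698 genes in WT cells with time, 1 to 5 and 926 to 4330 in Def6-/- cells, 0 to 1 and 108 to 458 at day 12, 0 to 2 and 154 to 4574 at day 0, and 0 to 1 and 89 to 3337 in the interaction. A group left with 1 library added nothing to the shared spread, so these fits do not measure that group's own replicate error. The highest gene counts came without a WT day 0 library, the group whose 2 libraries differed most. Signs changed with time in WT cells for Mmp9 (-0.10 to 0.83) and Mmp11 (-0.36 to 0.14), and in Def6-/- cells for Mmp3 (-0.36 to 1.14) and Timp2 (-0.0612 to 0.12). At day 12 they changed for Mmp2 (-0.13 to 0.051), Mmp3 (-1.02 to 0.48), Mmp9 (-0.44 to 1.69), Mmp14 (-0.0391 to 0.11) and Timp1 (-0.28 to 0.14). At day 0 they changed for Mmp2 (-0.0347 to 0.12), Mmp3 (-0.57 to 0.20), Mmp9 (-0.80 to 0.14), Mmp11 (-0.067 to 0.55), Mmp13 (-0.42 to 0.34), Timp1 (-1.45 to 0.40) and Timp2 (-0.0282 to 0.21), and in the interaction for Mmp2 (-0.17 to 0.0081), Mmp3 (-0.84 to 0.67), Mmp9 (-0.11 to 2.02), Timp1 (-0.47 to 1.38) and Timp3 (-0.0289 to 0.12).

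With the replicate block, 5 members and 2552 genes were called with time in WT cells and 3 and 2282 in Def6-/- cells, 1 and 202 at day 12, 0 and 359 at day 0, and 0 and 170 in the interaction; Timp1 in WT cells was then called (adjusted p = 0.0259). Deviations of same-numbered libraries from their group means correlated at 0.09 (WT), 0.15 (Def6-/-), 0.04 (day 12) and 0.33 (day 0) over 12348 genes. With 2 libraries in a group, the deviation of replicate 2 mirrors that of replicate 1 and adds no separate value. Nothing in the labels says what a number shares.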

Other observations

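The proteases of 2 further families were mostly higher at day 12. Of 19 ADAM and ADAMTS genes, all tested, 10 were called higher and 1 lower with time in each genotype, with a median log2 difference of 0.98 in WT cells and 0.73 in Def6-/- cells. Adam23, which lacks protease activity, rose from 79.6 and 121 normalized CPM to 696 and 695 in WT cells (log2 2.81, SE 0.23, limma adjusted p = 0.000129) and by 2.72 in Def6-/- cells. Adamts2, which trims the amino end of procollagens, rose by 2.19 in WT cells and 2.22 in Def6-/- cells, and Adamts10 by 1.36 and 1.32. Adam9 fell by 0.77 and 0.76. Between genotypes, Adamts15 was called higher in Def6-/- cells at day 12 (6.16 and 7.69 against 3.16 and 2.51 normalized CPM, unadjusted limma p of 0.0159, adjusted p of 1) and Adam12 at day 0 (100 and 81.1 against 59.1 and 59.7, unadjusted limma p of 0.00883, adjusted p of 0.908).

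Of 11 cathepsins, 7 were called higher and 0 lower with time in each genotype in limma, with a median log2 difference of 1.48 in WT cells and 1.43 in Def6-/- cells. Ctss, the cathepsin of antigen-presenting cells, rose from 24.4 and 13.4 normalized CPM to 349 and 241 in WT cells (log2 3.93, SE 0.33, limma adjusted p = 0.000145) and by 4.11 in Def6-/- cells. Ctsh rose by 2.07 and 2.26, Ctsb by 1.57 and 1.40 and Ctso by 1.23 and 1.74. Of the macrophage markers, 11 of 13 were called higher with time in both genotypes, and their part in the cathepsin levels was not tested. Ctsk is one of the 11 and among the 4 not called. Its values in the files are not whole reads and were tested as deposited, so its level is not given, and the same holds for Ptprc among the 13 macrophage markers. Ctso was called lower in Def6-/- cells at day 0 (14.3 and 12.6 against 26.0 and 21.2 normalized CPM, unadjusted limma p of 0.00579, adjusted p of 0.908).

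The genes whose centred log2 profile over the 8 libraries was closest to that of Mmp13 were Ntn3, Sema3b and Smpdl3a, with root mean square differences of 0.14, 0.17 and 0.19 against a median of 1.29 over tested genes. Those closest to Mmp14 were Eml1, Ttc7b and 2900097C17Rik (0.06, 0.07 and 0.07, median 0.50), and those closest to Timp3 were Ipo7, Zfp51 and Xpot (0.11, 0.12 and 0.12, median 0.60). These are descriptions over 8 libraries of 4 groups, with no test.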
